A study of Rattus norvegicus with 24 samples.

Results

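The training by monocrotaline interaction asks, gene by gene, whether the effect of cardiac cachexia (CC) on skeletal muscle differed between sedentary and trained rats. Monocrotaline is a plant alkaloid that injures the vessels of the lung, overloads the right ventricle and leads to heart failure with muscle loss. The interaction was the Log2FC of CC-Sed over Sed minus the Log2FC of CC-Ex over Ex, so that a value above 0 marks a gene with a higher CC effect in sedentary rats. All 24 libraries and all 10851 genes of the deposited table entered it, chosen by group label alone and not by any measured value. Sed rats received saline and stayed sedentary, Ex rats received saline and trained on a treadmill, CC-Sed rats received monocrotaline and stayed sedentary, and CC-Ex rats received monocrotaline and trained. All were male Wistar rats with no genetic change, 6 per group, and each library came from the medial gastrocnemius of 1 animal. Monocrotaline rats that died or showed no right ventricular change were not part of the CC groups, which therefore hold survivors with heart changes. Muscle was taken in the rested state, some time after the last exercise test, so that the values are not those of an acute bout.

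Skeletal muscle draws on fatty acids through a chain of steps. Lipoprotein lipase and fatty acid transporters bring them in, acyltransferases such as Dgat2 store them as triglyceride, lipases such as Pnpla2 release them, and carnitine palmitoyltransferases and the beta-oxidation enzymes break them down in mitochondria. Endurance training is known to raise oxidative capacity, and muscle wasting is known to engage the FoxO transcription factors, the ubiquitin ligase Fbxo32 (atrogin-1) and the growth inhibitor Ddit4. Slow fibres are rich in mitochondria and in the lipid-handling proteins, and the medial gastrocnemius of the rat is mostly fast with a slow, oxidative deep region.

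The libraries held 37816239 to 50350554 counts each. Myh4, the myosin heavy chain of the fastest fibres, had a median of 87157 CPM (counts scaled by library size) in Sed rats, as fits a fast muscle. The slow myosin gene Myh7 was not in the table used here, and 7 of 12 slow-fibre entries were measured. The median biological coefficient of variation, the spread between rats beyond counting error, was 0.165 for Sed, 0.163 for Ex, 0.251 for CC-Sed and 0.298 for CC-Ex. CC-Ex replicate 5 stood apart on the first principal component, at 96.5 against -16.7 to 16.8 in the other CC-Ex rats, and list scores and named genes that moved by more than 1.5 times without it are given both ways, except for shifts under 0.1 log2 units. The library numbers in the labels, whose meaning is not given there, ran lower for CC-Ex (median 4) than for Sed (15.5), Ex (18) and CC-Sed (10). Values are from a bulk tissue, in which fewer cells of a type and less RNA per cell cannot be told apart.

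No gene passed the test of the interaction. In edgeR's quasi-likelihood test with Benjamini-Hochberg adjustment, 0 of 10851 genes (0%) had an adjusted p-value under 0.05, and the smallest adjusted p-value was 0.9996. An unadjusted p-value under 0.05 was found for 154 genes (1.42%), 98 of them (0.903%) above 0 and 56 (0.516%) below 0. An even spread of p-values would put 542.55 genes in each twentieth of the range, and the top twentieth held 650, so the smallest p-values were fewer than an even spread gives. DESeq2 and limma-voom with sample quality weights also called 0 genes after adjustment, with 197 and 474 genes under 0.05 before it. The same model called 701 genes (6.46%) for CC in sedentary rats, 467 higher (4.3%) and 234 lower (2.16%), and 108 genes (0.995%) for CC in exercised rats, 95 higher (0.875%) and 13 lower (0.12%). These counts are no test of the difference, and single rats set them: the sedentary count ran from 173 (without CC-Sed replicate 6) to 2096 (without CC-Ex replicate 5), and the exercised count from 2 (without Ex replicate 2, 3, 4, 5 or 6, or CC-Ex replicate 6) to 847 (without CC-Ex replicate 4), with 5 without CC-Ex replicate 5. At an unadjusted p-value under 0.05 they were 3083 (28.4%) and 2448 (22.6%).

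The intervals show what sizes the data leave room for. The median interaction was -0.0044 on the log2 scale, 49.1% of genes lay above 0, and the 5th and 95th percentiles were -0.37 and 0.49. With a median standard error (SE) of 0.245, the 95% interval of 8335 genes (76.8%) stayed within 1 log2 unit of 0 on both sides, and that of 3306 genes (30.5%) within 0.5. The intervals of the remaining genes outside 1 log2 unit include a difference of more than 2-fold. A value of 1 or more in size was seen in 102 genes, 73 above 0 and 29 below. For comparison, the median size of the CC effect was 0.231 in sedentary and 0.218 in exercised rats, and the median size of the training effect was 0.083 in saline and 0.0968 in monocrotaline rats. Neither training contrast called a gene after adjustment in edgeR (0% each), DESeq2 or limma-voom, with 118 genes (1.09%) and 234 genes (2.16%) at an unadjusted edgeR p-value under 0.05.

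The direction of the CC effect was shared. Of 1482 genes with an unadjusted p-value under 0.05 in both CC contrasts, 1480 had the same sign in both and 2 had opposite signs. A set of 79 genes passed the adjusted threshold in both, all with the same sign, which is 11.3% of the 701 sedentary genes and 73.1% of the 108 exercised genes. Among the 701 genes called in sedentary rats, the median CC effect along its own direction was 0.72 in sedentary and 0.46 in exercised rats, and 622 (88.7%) had the larger effect in the sedentary rats. Among the 108 genes called in exercised rats it was 1.07 in exercised and 0.89 in sedentary rats, and 73 (67.6%) had the larger effect in the exercised rats. Genes picked for passing in one contrast tend to be larger there by the choice itself, so neither count measures the interaction.

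**Figure D1:**
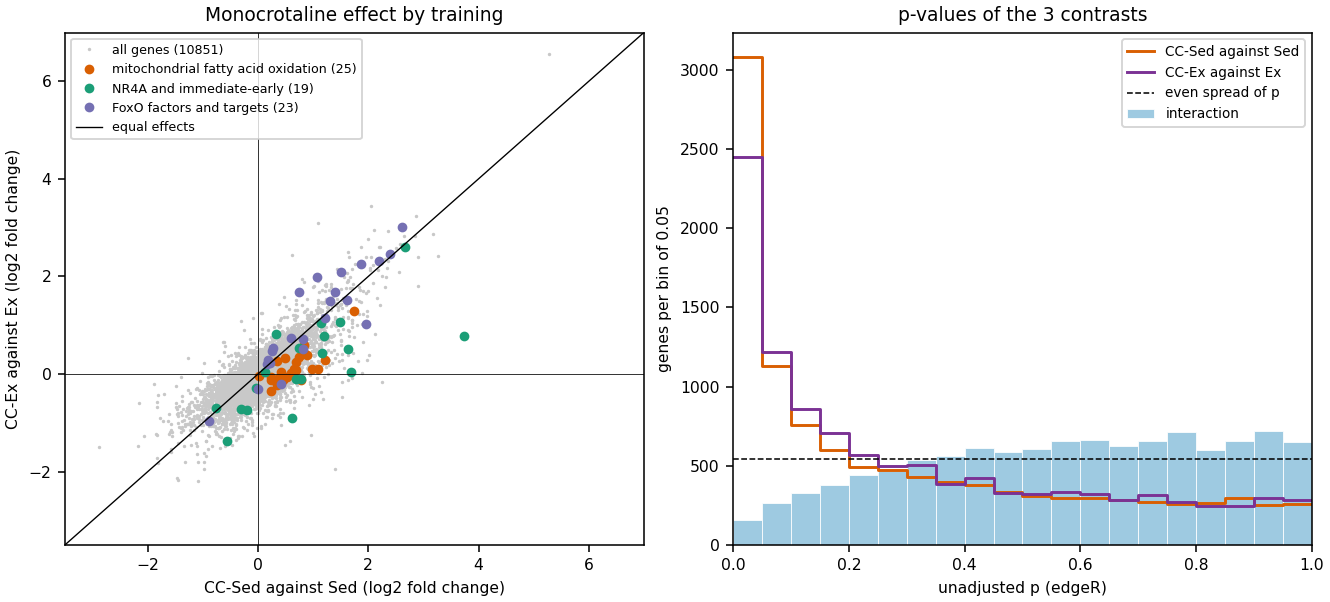
The left plot sets the CC effect in sedentary rats (x axis, log2 fold change) against that in exercised rats (y axis) for 10851 genes, with 3 gene lists coloured and the line of equal effects drawn. FoxO genes lie along the line and the fatty acid oxidation genes lie under it, while the right plot shows that unadjusted interaction p-values (bars) were fewest near 0, with 154 genes in the first bin, where the 2 CC contrasts (lines) held 3083 and 2448.

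Gene lists of 60 pathways, complexes and cell types were scored in each rat as the mean log2 CPM of their measured genes, and the interaction of the score was taken from the 4 group means with an SE from the spread between rats. It lay above 0 in 51 lists, and in none of the 60 did it exceed 2 SE, the largest ratio being 1.85 for the ceramide list. In 12 lists the score and the median of the fitted gene values had opposite signs, and the score taken as the median of its genes kept the sign of the mean in 46 of 60 lists. In 10 lists every measured member lay above 0, against 49.1% of all genes. These were fatty acid oxidation, lipolysis, slow-fibre sarcomere, the tricarboxylic acid (TCA) cycle, complexes II and III, complex IV, ATP synthase, the mitochondrial DNA genes, adipocyte markers and Schwann cell markers. Members of a list vary together from rat to rat, so such a count is closer to 1 observation than to as many as there are genes. Of 1263 genes in any list, 15 had an unadjusted interaction p-value under 0.05, against 154 of all 10851 genes (1.42%). After adjustment 0 passed.

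**Figure D2:**
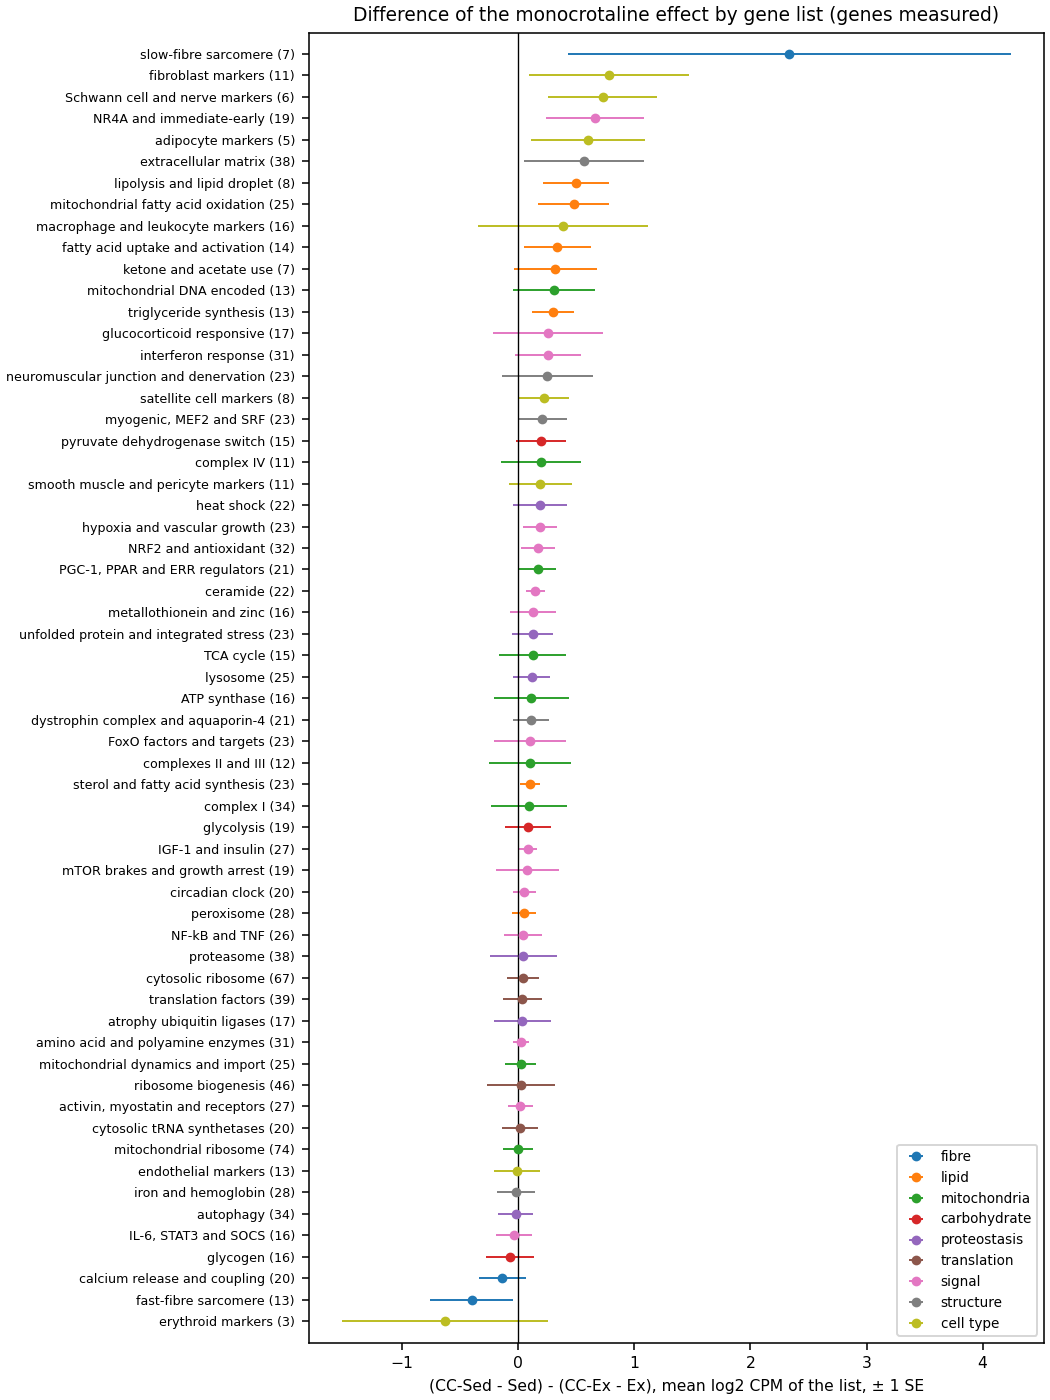
Each point is the interaction of a list's score in log2 CPM, with a bar of 1 SE, sorted by value and coloured by category. Lipid lists lie to the right of 0, for instance at 0.48 for fatty acid oxidation, the protein breakdown and translation lists lie near 0, and no list lies beyond 2 SE.

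Fatty acid oxidation was the list with the most single genes at low p-values. All 25 of its measured genes lay above 0, with a median of 0.55 and a range from 0.05 for the carnitine transporter Slc22a5 to 0.99 for Acot2. In sedentary rats 8 of the 25 rose with CC, against 4.3% of all genes, and in exercised rats 1 rose, against 0.875%. The 8 were Acadl, Cpt1b, Hadhb, Decr1, Acad11, Acot2, Mlycd and Acacb, and the 1 was Acad11, an acyl-CoA dehydrogenase. The interaction itself was called for none of them. Median scores were 6.52 log2 CPM for Sed, 6.63 for Ex, 7.15 for CC-Sed and 6.82 for CC-Ex, and the ranges of all 4 groups overlapped. The score was 0.60 (SE 0.195) higher with CC in sedentary rats and 0.12 (SE 0.234) higher in exercised rats, a difference of 0.48 (SE 0.305). It was 0.38 without CC-Ex replicate 5.

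Acadl, the long-chain acyl-CoA dehydrogenase, had 136 to 309 CPM for Sed (median 234), 139 to 402 for Ex (241), 196 to 631 for CC-Sed (510) and 191 to 390 for CC-Ex (257). In CC-Sed 4 of 6 rats lay above every rat of the other groups, and no CC-Ex rat exceeded the highest Ex rat. Its Log2FC with CC was 0.98 in sedentary rats (edgeR quasi-likelihood test, adjusted p = 0.0367) and 0.10 in trained rats, and the interaction was 0.88 (SE 0.377, unadjusted p = 0.0294, adjusted p = 0.9996).

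Decr1, the dienoyl-CoA reductase needed for unsaturated fatty acids, had medians of 28.2, 30.5, 59.4 and 41.9 CPM for Sed, Ex, CC-Sed and CC-Ex. All 6 CC-Sed rats, from 39.9 to 85.1 CPM, lay above the highest Sed rat at 35.2, whereas CC-Ex ran from 18.6 to 54 and Ex from 17.1 to 52.6. The interaction was 0.93 (SE 0.380, edgeR unadjusted p = 0.0229, adjusted p = 0.9996). Acot2, a mitochondrial acyl-CoA thioesterase, and Hadhb, a subunit of the trifunctional protein, had interactions of 0.99 (SE 0.462) and 0.55 (SE 0.264). Other members had similar values with wider relative errors, such as 0.90 (SE 0.494) for Acaa2, the last thiolase of the pathway, 0.66 (SE 0.373) for Cpt2 and 0.50 (SE 0.277) for Cpt1b, the muscle carnitine palmitoyltransferase at the entry step. Acad11 had CC effects of 1.73 and 1.28, both called, and an interaction of 0.45 (SE 0.369).

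The DNA just upstream of these genes is shown because the 25 members lay on the same side of 0 and because PPAR and ERR nuclear receptors, known regulators of this pathway, bind sites built on the hexamer AGGTCA. RefSeq (GRCr8) gave the 250 bases before the gene start for 21 of the 25 members and for 8699 of the 10851 genes. AGGTCA on either strand was found in 5 of the 21 (23.8%) and in 921 of the 8699 (10.6%). Its extended form AAGGTCA, which contains the first motif, was found in 2 (9.52%) and 211 (2.43%), and TCAAGGTCA in 0 and 17 (0.195%). For other motifs the shares were 3 members (14.3%) against 24.6% of all genes for GGAAGT, 1 (4.76%) against 2.91% for TGACGTCA, and 0 against 8.56% for CACGTG. A match describes letters and is not a measured binding site. The 5 genes with AGGTCA were Acacb, Acadvl, Eci1, Acad11 and Echs1, with interactions of 0.41, 0.56, 0.43, 0.45 and 0.07. Their smallest unadjusted interaction p-value was 0.0572 (edgeR, Acacb). Acadl, Decr1, Acot2 and Hadhb, the list members under 0.05, were not among them, and Acadl and Decr1 had no sequence here. Of the 5, the 3 with the smallest interaction p-values are printed 5′ to 3′ on the gene's strand. AGGTCA or its reverse complement TGACCT is in capitals. They are Acacb (chr12:48138215-48138464, minus strand), Acadvl (chr10:55236706-55236955, minus strand) and Eci1 (chr10:13961000-13961249, plus strand).
Acacb: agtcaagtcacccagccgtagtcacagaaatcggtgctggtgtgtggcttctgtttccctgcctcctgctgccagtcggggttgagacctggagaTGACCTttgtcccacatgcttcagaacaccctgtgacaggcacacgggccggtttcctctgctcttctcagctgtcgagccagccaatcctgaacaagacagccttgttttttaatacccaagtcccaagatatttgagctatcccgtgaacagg
Acadvl: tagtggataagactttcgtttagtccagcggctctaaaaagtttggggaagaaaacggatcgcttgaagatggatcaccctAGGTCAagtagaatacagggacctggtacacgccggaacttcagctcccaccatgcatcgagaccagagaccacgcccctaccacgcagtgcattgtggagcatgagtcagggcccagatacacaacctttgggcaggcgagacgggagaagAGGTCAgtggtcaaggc
Eci1: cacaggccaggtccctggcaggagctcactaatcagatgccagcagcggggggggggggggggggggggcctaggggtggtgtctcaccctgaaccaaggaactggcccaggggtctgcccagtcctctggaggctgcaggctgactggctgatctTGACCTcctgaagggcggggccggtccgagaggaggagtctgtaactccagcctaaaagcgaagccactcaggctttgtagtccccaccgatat

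Triglyceride synthesis held the largest single lipid interaction. Dgat2, which adds the last acyl chain of triglyceride, had 18.6 to 52.3 CPM for Sed (median 29), 25.7 to 101 for Ex (31.7), 35.5 to 160 for CC-Sed (95.4) and 26.3 to 61.1 for CC-Ex (52.1). Among the CC-Sed rats, 5 of 6 lay above the highest CC-Ex rat, and 1 Ex rat reached the CC-Sed levels. Its Log2FC with CC was 1.56 for sedentary rats (edgeR adjusted p = 0.016) and 0.12 for exercised rats, and the interaction was 1.44 (SE 0.496, 95% interval 0.41 to 2.46, unadjusted p = 0.00806, adjusted p = 0.9996). It stayed between 1.02 and 1.64 when each rat was left out in turn, the lowest value being that without Ex replicate 4.

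The other members lay on both sides of 0. Of 13 genes 8 lay above 0 and the median was 0.11. Gpam, the first acyltransferase, and Agpat2, which follows it, had interactions of 1.12 (SE 0.545) and 1.21 (SE 0.874), whereas the phosphatidate phosphatase Lpin1 had -0.66 (SE 0.596). The score differed by 0.30 (SE 0.179), and the same score taken as the median of the genes gave 0.061. In sedentary rats 2 of the 13 rose, Dgat2 and Dgat1, against 4.3% of all genes, and in exercised rats 0 rose, against 0.875%.

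Lipolysis and lipid droplet genes lay above 0 in 8 of 8 cases, with a median of 0.42 and a score difference of 0.50 (SE 0.281). Pnpla2, the adipose triglyceride lipase, had medians of 99.6, 108, 521 and 270 CPM for Sed, Ex, CC-Sed and CC-Ex. All 6 CC-Sed rats exceeded the highest Sed rat, and the CC-Ex rats spanned 93.8 to 950.1 CPM, wider than any other group. The interaction was 0.60 (SE 0.602), and 1.16 without CC-Ex replicate 5, the rat at the top of that range. The droplet coat gene Plin4 rose in sedentary (1.2) and in exercised rats (0.90), and its interaction was 0.31 (SE 0.295). Plin3 and Plin5, other droplet coat genes, had 0.80 (SE 0.474) and 0.69 (SE 0.674).

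Uptake and activation genes had 12 of 14 members above 0, with a median of 0.14. Lpl, lipoprotein lipase, had medians of 159.9, 235, 655 and 447 CPM, given in the same order. The ranges overlapped throughout, and the interaction was 0.82 (SE 0.828), 0.50 without Ex replicate 4 and -0.088 with the mean log2 CPM of slow-fibre genes as a covariate. The fatty acid binding gene Fabp3 had 1.12 (SE 1.00). The acyl-CoA synthetase Acsl3 stood on the other side at -0.57 (SE 0.388). Of the 14 genes only Acsf2, another acyl-CoA synthetase, rose in sedentary rats (1.65), against 4.3% of all genes. None passed in exercised rats, where 0.995% of all genes did.

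Among the regulators, Ppargc1a (PGC-1alpha), the coactivator of mitochondrial genes, had 11 to 22.3 CPM for Sed (median 17.8), 13.5 to 25.1 for Ex (19.9), 10.7 to 68.1 for CC-Sed (35.6) and 3.26 to 52.4 for CC-Ex (20.4). The monocrotaline rats, sedentary or trained, spread wider than the saline rats. Its interaction was 0.96 (SE 0.639, edgeR unadjusted p = 0.145), and 0.73 without CC-Ex replicate 5. Of the 21 PGC-1, PPAR and ERR genes 14 lay above 0, with a median of 0.05, and Esrra and Ppard, which bind the promoters of oxidation genes, had 0.05 (SE 0.372) and 0.07 (SE 0.251).

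**Figure D3:**
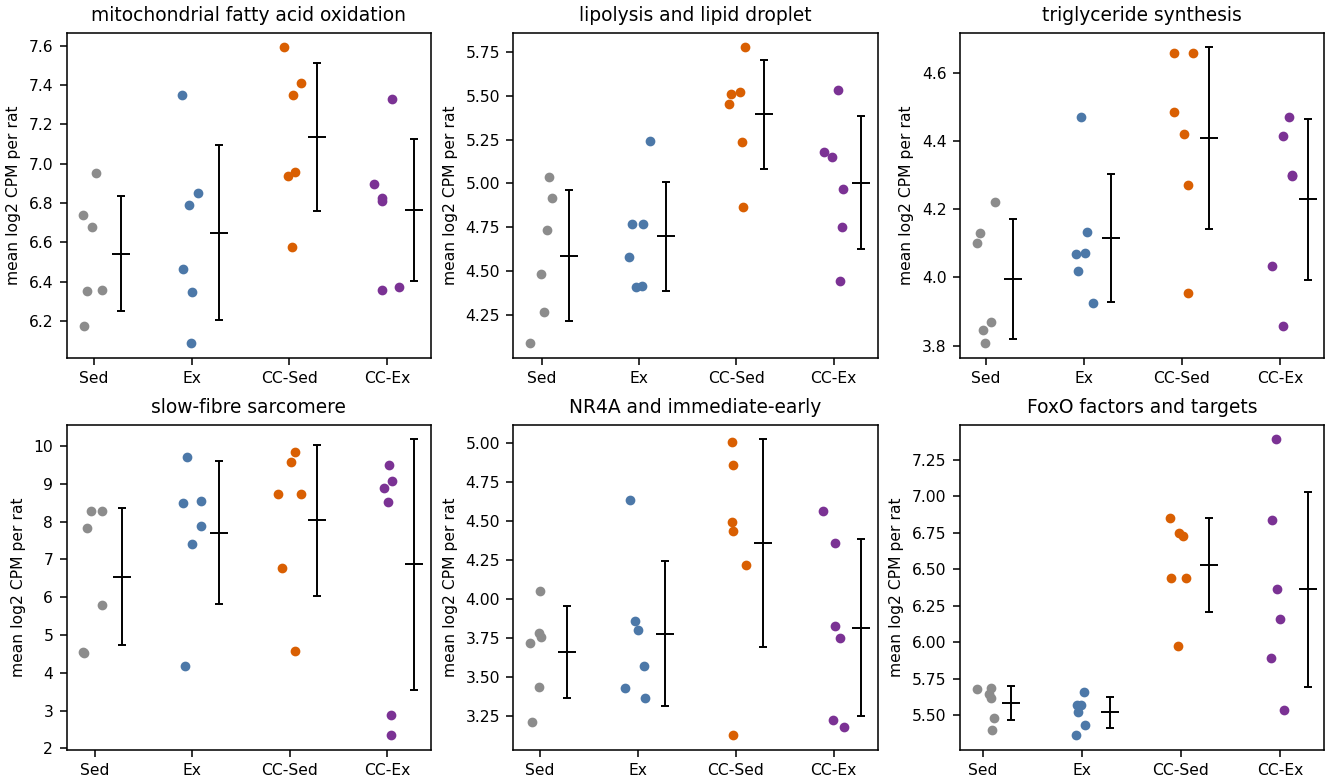
Each point is the mean log2 CPM of a list in 1 rat, with the group mean and SD drawn beside the points. In fatty acid oxidation, lipolysis and triglyceride synthesis the CC-Sed means are the highest, the slow-fibre panel has 2 CC-Ex rats near 2.4 and 2.9 with the others from 8.5 to 9.5, and the FoxO panel has both CC groups above both saline groups.

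The oxidative machinery also had values above 0 in most genes. All 15 TCA genes lay above 0 with a median of 0.16, and citrate synthase (Cs) had an interaction of 0.23 (SE 0.226). The score differences were 0.09 (SE 0.330) for complex I, 0.10 (SE 0.350) for complexes II and III, 0.20 (SE 0.347) for complex IV, 0.11 (SE 0.326) for ATP synthase and 0.31 (SE 0.351) for the 13 mitochondrial DNA genes, each below its SE. No gene of these lists was called for CC in sedentary or exercised rats, against 6.46% and 0.995% of all genes. Without CC-Ex replicate 5 the scores of complex I, complexes II and III, ATP synthase and the TCA cycle were -0.08, -0.08, -0.05 and -0.0003, and without CC-Sed replicate 4 they were -0.08, -0.08, -0.05 and -0.02. Leaving out CC-Ex replicate 5 also took complex IV to 0.05 and the mitochondrial DNA genes to 0.17, and leaving out CC-Sed replicate 4 took complex IV to 0.01. The 74 mitochondrial ribosome genes had a score difference of -0.0028 (SE 0.130), and the interval of 73 of them stayed within 1 log2 unit of 0.

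Slow-fibre genes had the largest interaction of any list and the least certain. The score difference was 2.34 (SE 1.91), and 1.42 without CC-Ex replicate 5. Tnni1, slow troponin I, had 7.66 to 450 CPM for Sed (median 195.8), 5.62 to 1268 for Ex (378), 11.2 to 1293 for CC-Sed (705) and 0.915 to 838 for CC-Ex (465). Every group held rats that differed by more than an order of magnitude in this gene. The slow-fibre score was 8.72 at the median of CC-Sed and 8.70 at the median of CC-Ex, and the gap between these groups' means came from low rats, since 2 CC-Ex rats lay at 2.36 and 2.88. That gap, CC-Ex minus CC-Sed, was -1.17. Ex minus Sed was 1.17, with medians of 8.19 and 6.80, so the saline groups entered the interaction as much. The 7 gene interactions ran from 0.76 for Casq2 to 1.78 for Myl3, with SEs from 0.604 to 1.81 across the list. Among fast-fibre genes 12 of 13 lay below 0, with Myh4 at -0.44 (SE 0.388), while Myh2, the myosin of fast oxidative fibres, had 1.1 (SE 1.03).

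The slow-fibre level moved with many genes within groups. For each gene outside the slow-fibre list, the correlation with the slow-fibre score was taken over the 24 rats after group means had been removed. Among 864 genes with a correlation above 0.6, 87.0% had an interaction above 0 (median 0.24), and among 635 genes at -0.6 or below, 11.2% had (median -0.12). In the middle range from -0.3 to 0.3 the share was 45.9% of 4635 genes. Across 10844 genes, which share libraries and are not independent, the interaction and this correlation had a Pearson r of 0.416. The slow-fibre score itself had an interaction of 2.34 in the same rats. Genes that follow it within groups therefore tend to share its sign, and these shares and this r are no separate test. The within-group correlation of list scores with the slow-fibre score was 0.82 for fatty acid oxidation, 0.72 for lipolysis, 0.62 for triglyceride synthesis, 0.34 for the NR4A and immediate-early list and -0.16 for FoxO. With the slow-fibre score as a covariate, the median interaction of the fatty acid oxidation genes was 0.17 (22 of 25 above 0), that of lipolysis 0.21 (7 of 8), that of uptake -0.02 (4 of 14) and that of complex I -0.09 (7 of 34). Some lists moved up instead. The median went from -0.02 to 0.27 for the proteasome genes (35 of 38 above 0) and from -0.07 to 0.18 for ribosome biogenesis (44 of 46). For the atrophy ligases it went from -0.14 to 0.23 (12 of 17). With the covariate 52.8% of all genes lay above 0. The score rests on transcripts only, and whether fibre make-up or the place of sampling in the muscle differed between rats was not tested.

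**Figure D4:**
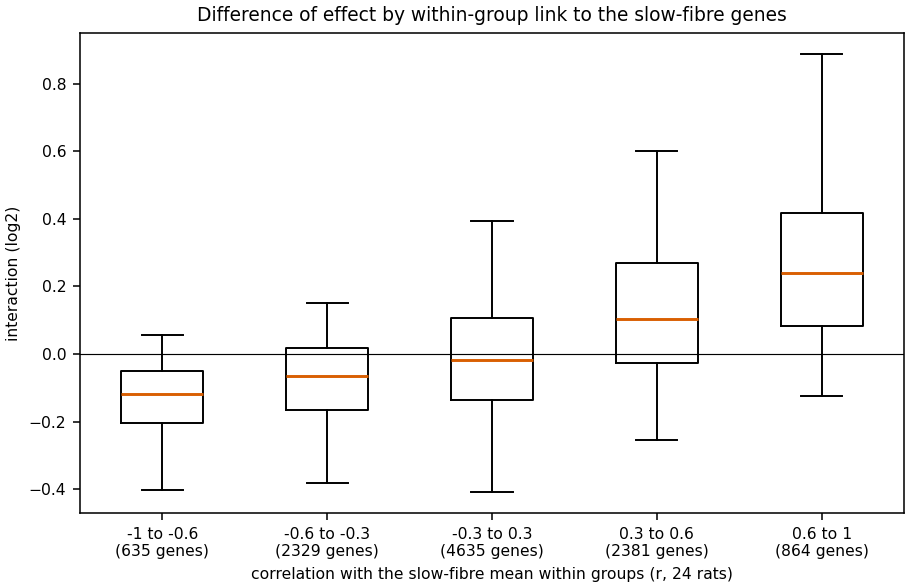
Boxes show the interaction (log2, y axis) of all genes outside the slow-fibre list, in 5 ranges of their correlation with the slow-fibre score within groups (x axis), with medians, quartiles and whiskers at the 5th and 95th percentiles. The median climbs from -0.12 in the lowest range to 0.24 in the highest.

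NR4A and immediate-early genes encode nuclear receptors and transcription factors that are switched on quickly by contraction, catecholamines and stress. Nr4a3 had the largest interaction of any named gene. It had 2.64 to 7.13 CPM for Sed (median 3.16), 0.772 to 8.43 for Ex (2.68), 1.85 to 117 for CC-Sed (45) and 1.44 to 12.1 for CC-Ex (5.07). In CC-Sed 5 of 6 rats exceeded every rat of the other 3 groups and the sixth lay below the Sed range. Its Log2FC with CC was 3.73 for sedentary rats (SE 0.764, edgeR adjusted p = 0.0116) and 0.78 for exercised rats (SE 0.705). The interaction was 2.95 (SE 1.00, 95% interval 0.88 to 5.03, edgeR unadjusted p = 0.00734, adjusted p = 0.9996), and leaving out each rat in turn moved it between 2.50 and 3.25.

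Of the 19 list members 17 lay above 0, with a median of 0.43 and a score difference of 0.66 (SE 0.422). In sedentary rats 5 rose (Nr4a3, Maff, Mafk, Sik1 and Btg2), against 4.3% of all genes, and in exercised rats 1, Maff, against 0.875%. The interactions of Nr4a2 and of the stress factor Atf3 were 1.52 (SE 0.880) and 1.65 (SE 1.01), and that of the salt-inducible kinase Sik1 was 1.11 (SE 0.627). Maff, a small MAF factor, had nearly equal effects of 2.66 and 2.60. Egr1 had effects of -0.56 and -1.37, neither called, and its median levels of 11.5 CPM for Sed and 17.3 for Ex compared with 7.29 for CC-Sed and 7.97 for CC-Ex were farther apart between the saline groups than between the CC groups. With the slow-fibre score as a covariate the median of the gene interactions was 0.77, with 16 of 19 above 0, and the score difference was 0.48.

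Many muscle-wasting genes rose with CC in sedentary and in exercised rats. FoxO factors and targets had a score effect of 0.95 (SE 0.139) in sedentary and 0.84 (SE 0.276) in exercised rats, a difference of 0.10 (SE 0.309), while the median of the gene interactions was -0.10 and 8 of 23 lay above 0. The score difference was 0.29 without CC-Ex replicate 5 and -0.06 without CC-Ex replicate 4, and the intervals of 10 of the 23 genes stayed within 1 log2 unit of 0. In sedentary rats 11 of the 23 rose, against 4.3% of all genes, and in exercised rats 7, against 0.875%. Foxo1 rose by 2.40 and 2.45, Foxo3 by 1.62 and 1.52, Sesn1, a stress-induced brake on mTOR, by 2.19 and 2.31, and Klf15 by 1.39 and 1.68. Irs2, an insulin receptor substrate, rose by 1.96 in sedentary rats and had 1.03 in exercised rats, with an interaction of 0.93 (SE 0.762).

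Fbxo32 had 52.3 to 326 CPM for Sed (median 111), 69.5 to 125 for Ex (105), 179 to 1415 for CC-Sed (1042) and 86 to 2755 for CC-Ex (469.9). It rose by 2.62 in sedentary and 3.02 in exercised rats (edgeR adjusted p = 0.020 and 0.0329). The interaction of -0.40 (SE 0.836, 95% interval -2.13 to 1.33) turned to 0.52 without CC-Ex replicate 5, the rat at 2755 CPM, and to 0.024 without Sed replicate 5. Without CC-Ex replicate 5 the metallothionein Mt2A went from -1.28 (SE 1.66) to 2.14, the only one of its 24 values with 1 rat left out that turned. Foxo1 and Ddit4 had no settled sign: Foxo1 (-0.05) turned in 5 of the 24, reaching 0.43 without CC-Ex replicate 5, and Ddit4 (0.03) in 12, with 0.70 without that rat. The 17 atrophy ligases had a score difference of 0.04 (SE 0.249) with a median gene at -0.14, and 0.19 without that rat. The 38 proteasome genes had 0.04 (SE 0.289) with a median gene at -0.02, and 0.22 without it. With the slow-fibre score as a covariate the score difference was 0.14 for the ligases and 0.19 for the proteasome.

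Of 17 glucocorticoid-responsive genes, 10 rose in sedentary rats, against 4.3% of all genes, and 5 in exercised rats, against 0.875%. The score difference was 0.26 (SE 0.474), the median gene -0.04, and the score was 0.54 without CC-Ex replicate 5. Fkbp5, a standard readout of the glucocorticoid receptor, rose by 1.91 in sedentary rats and had 1.70 in exercised rats, with an interaction of 0.20 (SE 0.591), 0.51 without CC-Ex replicate 5 and 0.015 without Sed replicate 2. Acer2, an alkaline ceramidase, had 2.81 to 5.16 CPM for Sed, 2.51 to 4.52 for Ex, 6.95 to 19.2 for CC-Sed and 8.78 to 23.7 for CC-Ex. No monocrotaline rat overlapped a saline rat of its own training state. It rose by 2.17 and 2.13, and its interaction of 0.04 (SE 0.352, 95% interval -0.69 to 0.77) keeps any difference under 1 log2 unit. It was 0.19 without CC-Ex replicate 5. The 22 ceramide genes had a score difference of 0.15 (SE 0.0798) and a median gene at 0.03, with the serine palmitoyltransferase subunit Sptlc2 highest at 0.82 (SE 0.409).

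**Figure D5:**
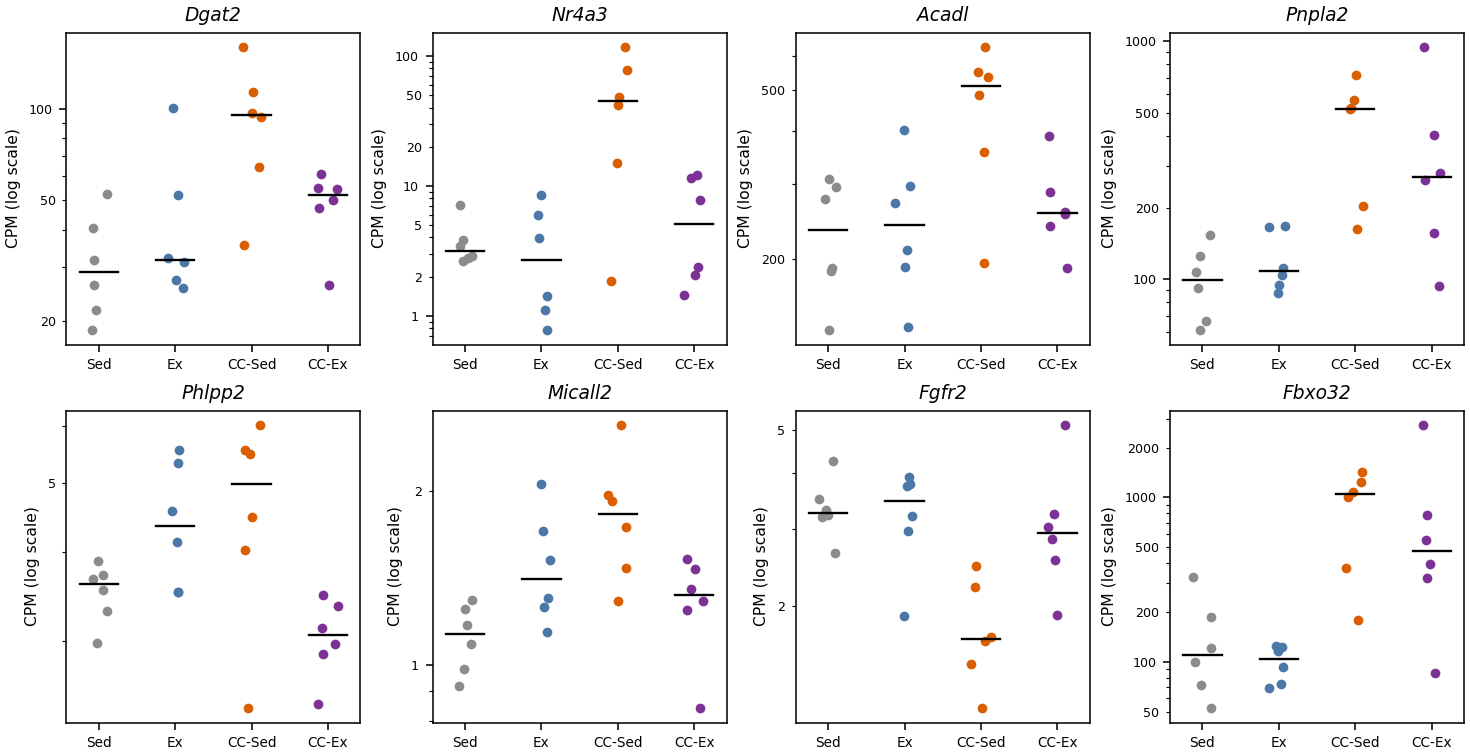
Points are the CPM of single rats on a log axis, with a bar at the group median, for 8 genes. Nr4a3 is high in most CC-Sed rats and not in CC-Ex. Dgat2 is highest in most CC-Sed rats, and its CC-Ex median lies between those of Ex and CC-Sed. Fgfr2 is low in CC-Sed, and Fbxo32 is raised in both CC groups with 1 CC-Ex rat at 2755 CPM.

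Genes with the 10 smallest p-values above 0 were Phlpp2, Micall2, Dnajb14, Nav3, Creb5, Hectd2, Hipk4, Niban1, Nr4a3 and Gask1b, and Dgat2 was the next. Phlpp2, a phosphatase that removes an activating phosphate from Akt, had 2.98 to 3.88 CPM for Sed (median 3.60), 3.52 to 5.56 for Ex (4.35), 2.42 to 6.03 for CC-Sed (4.98) and 2.46 to 3.48 for CC-Ex (3.06). No CC-Ex rat reached the lowest Ex rat, while 5 of 6 CC-Sed rats lay above the Sed median. Its CC effects were 0.41 and -0.54, neither called, and its interaction of 0.95 (SE 0.240) had the smallest p-value of all genes (edgeR unadjusted p = 0.000635, adjusted p = 0.9996). Micall2, which acts in membrane recycling and actin organisation, had 0.93 (SE 0.253), with CC effects of 0.71 (called) and -0.22. In 8 of these 10 genes the fitted CC effects had opposite signs, which a choice by the interaction favours. Both were above 0 for Nr4a3, and both were below 0 for Gask1b, which fell in exercised rats (-1.05, edgeR adjusted p = 0.0329).

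Below 0, the 10 smallest p-values belonged to Wdr5b, Fgfr2, Ccnq, Pinlyp, Slc39a3, Rap1gds1, Pcdhb12, Ndufaf6, Nkap and Hspbp1. Fgfr2, a fibroblast growth factor receptor, had 2.64 to 4.27 CPM for Sed (median 3.26), 1.90 to 3.92 for Ex (3.47), 1.18 to 2.47 for CC-Sed (1.68) and 1.91 to 5.15 for CC-Ex (2.94). Every CC-Sed rat lay below every Sed rat, and CC-Ex overlapped Ex. It fell by 0.91 in sedentary rats (edgeR adjusted p = 0.0197) and had -0.06 in trained rats, an interaction of -0.85 (SE 0.303, unadjusted p = 0.00989). The zinc importer Slc39a3 had -0.50 (SE 0.187), with a fall of 0.63 called in sedentary rats. Other list members under an unadjusted p-value of 0.05 included Pex7, which carries enzymes into peroxisomes (-0.47), hexokinase Hk1 (0.39), the oncostatin M receptor Osmr (0.58), Gclc of glutathione synthesis (0.47), the zinc transporter Slc39a14 (0.26), utrophin Utrn (0.38) and the Schwann cell gene Prx (1.14). Prx was at 0.55 without Ex replicate 1, the rat with 23.5 CPM.

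Markers of several other cell types lay above 0, while endothelial and erythroid markers did not. Extracellular matrix genes were above 0 in 34 of 38 cases (median 0.39), with CC score effects of -0.36 (SE 0.313) in sedentary and -0.92 (SE 0.409) in exercised rats. The score was lowest in CC-Ex and highest in Ex, with CC-Ex minus CC-Sed at -0.29 and Ex minus Sed at 0.28. The score difference of 0.57 was 0.34 without CC-Ex replicate 5. The same gaps were -0.36 and 0.42 for the fibroblast markers, and -0.16 and 0.44 for the adipocyte markers. Col1a1 had medians of 447, 699, 221 and 90.9 CPM for Sed, Ex, CC-Sed and CC-Ex and an interaction of 1.09 (SE 0.910). The fibroblast markers had a score difference of 0.78 (SE 0.688) and 10 of 11 genes above 0, the Schwann cell and nerve markers 0.73 (SE 0.470) and 6 of 6, and the macrophage and leukocyte markers 0.39 (SE 0.736) and 12 of 16. Without CC-Ex replicate 5 the fibroblast score was 0.43 and the macrophage score 0.15, and with each rat left out in turn the macrophage score ran from 0.083 (without Sed replicate 4) to 0.71 (without CC-Ex replicate 3). The fibroblast receptor gene Pdgfra was at 0.28 (SE 0.574), at 0.10 without CC-Ex replicate 5 and at 0.0087 without Ex replicate 6. Cd68 of macrophages and Acta2, smooth muscle actin, were at 0.51 (SE 0.907) and 0.32 (SE 0.407), and at 0.30 and 0.17 without CC-Ex replicate 5. The adipocyte score differed by 0.60 (SE 0.490), and by 0.34 without CC-Ex replicate 4, with 5 of 11 markers measured and the defining gene Adipoq at 0.15 (SE 0.792), or -0.01 without CC-Ex replicate 5, at medians of 6.12, 19.1, 3.96 and 4.91 CPM. Endothelial markers were at -0.01 (SE 0.197), with 5 of 13 above 0, and the globin genes Hbb, Hba-a1 and Hba-a3 at -0.83 (SE 0.784), -0.75 (SE 0.742) and -0.89 (SE 0.762). The part of these cell types in the muscle gene values was not tested.

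Cytosolic ribosome and tRNA synthetase genes gave narrow values around 0. The 67 cytosolic ribosome genes had a score difference of 0.04 (SE 0.139), with 49 above 0 and the intervals of 64 within 1 log2 unit, and the 20 cytosolic tRNA synthetases had 0.01 (SE 0.152) with a median gene at -0.02 and all 20 intervals within 1 log2 unit. Without CC-Ex replicate 5 the synthetase score was 0.12. The 46 ribosome biogenesis genes were less certain, at 0.02 (SE 0.294) with 36 intervals within 1 log2 unit. Their score was 0.24 without CC-Ex replicate 5, and the lowest gene was at -0.84. IGF-1 and insulin genes had 0.08 (SE 0.0774). In sedentary rats 5 of them rose and 4 fell, against 4.3% and 2.16% of all genes, and in exercised rats 2 rose, against 0.875%. The activin and myostatin list was at 0.02 (SE 0.111), and at -0.04 without CC-Ex replicate 5, and the IL-6, STAT3 and SOCS list at -0.04 (SE 0.154), in which 4 of 16 genes rose in sedentary and 3 in exercised rats, against the same shares.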

How the data were processed

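RNA from the medial gastrocnemius of 24 rats was sequenced as poly-A libraries. Per the submitters' processing notes and the study's methods, the authors trimmed the reads with Trim Galore, quantified them with Salmon on the mRatBN7.2 transcriptome and summed them to genes. The authors deposited these estimated counts as whole numbers, none below 10 in any rat, so weakly expressed genes are not analysed here. Groups came from the sample labels.

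The rounded values entered edgeR 4.0.16 (under R 4.3.3), with TMM scaling and a quasi-likelihood model of the 4 groups over the 24 rats. The low-count filter removed 0 genes. The interaction and its component contrasts were tested over 10851 genes with Benjamini-Hochberg adjustment at 0.05. SEs were sizes divided by the root of F. List scores were means of log2 CPM with a prior count of 2 and had no p-value. The model was tested on simulated data. The gene lists and the rule for named genes were chosen with earlier results of these data known. The rule takes the 10 smallest interaction p-values in each direction, the first entry of each described list, up to 4 members a list with an unadjusted p-value under 0.05, and 4 lipid genes that the study singled out (Lpl, Dgat2, Pnpla2 and Ppargc1a). One gene that the rule names is not reported here. Other members are given as examples, chosen after their values were seen. Alternatives were DESeq2 1.42.0, limma-voom (limma 3.58.1), upper-quartile scaling, no or a stricter filter (at least 1 CPM in every rat), another prior count, the median of a list's genes, covariates, a replicate block and each rat left out. The depth was 37816239 to 50350554 counts per rat, and how far it limits the precision of single genes was not tested.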

Additional observations from a re-analysis of the deposited data

Results flagged for a closer look

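In 320 sets of 6 rats, the highest or lowest rat was compared with its neighbours by Dixon's ratio, and 20 sets passed its 95% critical value for 6 values. Chance flags about 1 in 20 such sets, so this number is close to what chance gives. All were single rats far from the other 5 of their group.

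Dgat2 was at 26.3 CPM in CC-Ex replicate 4, with the next rat at 47, Micall2 at 0.84 CPM in the same rat and Pcdhb12 at 1.44 CPM, as the highest of its group, again in that rat. Acer2 was at 6.95 CPM in CC-Sed replicate 4 and at 5.16 CPM in Sed replicate 1. Adipoq was at 8.34 CPM in CC-Sed replicate 4 and at 22.6 CPM in CC-Ex replicate 2, each the highest of its group. Col1a1 was at 59.9 CPM in CC-Sed replicate 2, the lowest of its group. Among Sed rats, Dnajb14 was low at 0.922 CPM and Hbb low at 21.6 CPM in replicate 5, in which the erythroid score was also low at 3.95 log2 CPM. Ccnq was low at 3.91 CPM in Sed replicate 3. Among Ex rats, Prx was high at 23.5 CPM in replicate 1, Osmr low at 3.3 CPM in replicate 3 and Hectd2 low at 12.8 CPM in replicate 4.

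For the list scores, the proteasome was high at 7.17 log2 CPM and the PGC-1, PPAR and ERR regulators low at 3.92 log2 CPM in CC-Ex replicate 5. The proteasome score was high at 6.03 log2 CPM in Ex replicate 1, the smooth muscle and pericyte score low at 5.18 log2 CPM in Ex replicate 2 and the fast-fibre score low at 12.2 log2 CPM in Ex replicate 4.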

How the results depend on the processing

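The interaction called 0 genes after adjustment under DESeq2, limma-voom, upper-quartile scaling, no filter, a filter of at least 1 CPM in every rat, the replicate block, the library number and the slow-fibre covariate, and in all 24 fits that left out 1 rat, where the smallest adjusted p-value was 0.127 (edgeR, without CC-Sed replicate 2). At an unadjusted p-value under 0.05 it had 474 genes with limma-voom, and from 117 to 489 with 1 rat left out, when that rat was CC-Sed replicate 6 and CC-Ex replicate 5. Leaving out CC-Sed replicate 2 or CC-Ex replicate 3 also moved it over 1.5 times, to 406 and 279. The 10 genes with the smallest p-values in each direction kept their direction in all 153 values from other models, scalings and covariates. They were picked for their interaction in the same rats, so this does not test their direction. The cause of the changes below was not tested.

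CC in sedentary rats called 1331 genes with DESeq2, 2474 with limma-voom and 1431 with the slow-fibre covariate, and 173 to 2096 with 1 rat left out. CC in exercised rats called 685 with DESeq2, 1043 with limma-voom, 23 with upper-quartile scaling, 42 with the library number and 2 to 847 with 1 rat left out. Each Sed and CC-Sed rat, and CC-Ex replicate 5, moved the sedentary count by over 1.5 times when left out, and each Ex and CC-Ex rat, and CC-Sed replicate 4, the exercised count. All groups share a common estimate of the spread, so a rat can move the count of a contrast that does not hold it.

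The replicate numbers in the labels join different animals. Residuals of same-numbered rats had mean correlations from -0.231 (CC-Sed and CC-Ex) to 0.0947 (Sed and CC-Sed), with at most 4 of 6 pairs over 0.1. So few pairs cannot exclude a pairing, but the labels state none and the main model used none. With the replicate block the interaction called 0 genes (124 unadjusted) and CC in exercised rats 1 gene, and the signs of Fbxo32 (0.43), Foxo1 (0.29) and Mt2A (1.06) turned.

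Named genes also changed sign elsewhere, some of them far from 0. With limma-voom these were Fbxo32 (0.72), Foxo1 (0.83), Mt2A (1.41), Adipoq (-0.12) and Acta2 (-0.022), with upper-quartile scaling Foxo1 (0.0067), with the library number Ddit4 (-0.035) and Acer2 (-0.035), and with the slow-fibre covariate Lpl (-0.088), Fbxo32 (0.27), Foxo1 (0.27) and Mt2A (1.46). With 1 rat left out, Fbxo32 ran from -0.64 to 0.52, Foxo1 from -0.34 to 0.43, Ddit4 from -0.24 to 0.70, Mt2A from -2.22 to 2.14, Acer2 from -0.078 to 0.19, Adipoq from -0.11 to 0.93 and Cd68 from -0.26 to 1.47. The triglyceride synthesis score fell to 0.061 when taken as the median of its genes. List scores lay above 0 in 42 lists (without CC-Ex replicate 5) to 53 lists (without Ex replicate 2 or CC-Ex replicate 6) of 60 with 1 rat left out, and in 41 of 60 with the median of genes.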
